A study of Mus musculus with 2 samples.

Results

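The Dlk1-Meg3 imprinted domain on mouse chromosome 12 was described in hippocampus at 10 days of age. Its 6 named genes, Meg3, Rian, Mirg, Dlk1, Rtl1 and Dio3, were found by symbol in the annotation, and all 6 matched, of 55536 named genes in all. The samples were 2 biological replicates of 1 group: total RNA from hippocampus tissue (labelled as a layer of it) of B6CASTF1/J mice, the F1 hybrid of the strains C57BL/6J and CAST/EiJ, from 300 ng of RNA with spike-in RNA added, both labelled male. The labels name 3 males for each replicate with different running numbers and do not spell out whether tissue was pooled, so the spread between the replicates is the only error available. No treatment, genotype or time was compared, and no reads were assigned to a parent of origin here.

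Genes of an imprinted domain are expressed mainly from the copy inherited from 1 parent. In this domain the protein-coding genes Dlk1, Rtl1 and Dio3 are known to be active on the paternal chromosome, while the long non-coding RNA genes Meg3, Rian and Mirg and their many microRNAs and small nucleolar RNAs (snoRNAs) are known to be active on the maternal one. A differentially methylated region between Dlk1 and Meg3 controls this choice. Dlk1 encodes a membrane protein related to Notch ligands, Rtl1 a protein derived from a retrotransposon with a role in placenta and muscle, and Dio3 the deiodinase that inactivates thyroid hormone. Rian carries many snoRNAs, Mirg lies over a large microRNA cluster, and in brain the non-coding RNAs of the domain are known for their high levels in neurons.

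Replicate 1 held 32035705 and replicate 2 held 29747193 expected counts, the estimated reads per gene, summed over all entries. The sex-linked genes of replicate 2 go against its label: Xist, expressed where an X chromosome is silenced, had 25 counts in replicate 1 but 30841 in replicate 2, and the Y-linked Ddx3y had 2164 and 0. It is therefore referred to as the library labelled male, replicate 2, or replicate 2 for short. Markers of hippocampal neurons were present in both libraries, with 13 of 13 listed genes at 1 TPM or more (TPM, the share of transcript molecules scaled to a fixed total, a level per length) and summed levels of 2504 and 2700 TPM. In the test between libraries described below, 7 of these 13 were called as lower in replicate 1 and 0 as higher. Of all tested genes, 6.28% were called as lower. The median log2 ratio of the neuron markers, replicate 1 over replicate 2, was -0.07. The libraries also differed in markers of other tissue. The 9 choroid plexus markers summed to 13.7 TPM in replicate 1 and 359 TPM in replicate 2, of which Ttr gave 8.02 and 340.07 TPM. The 9 myelin markers summed to 207 and 352 TPM. Summed levels of 7 markers of meninges and fibroblasts were 215 and 179 TPM, and those of 5 endothelial markers 78.0 and 79.6 TPM.

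The domain is a source of small RNAs as well as long ones, and the mature microRNAs below show how it is laid out. RefSeq (GRCm38.p6) gave 114 mature microRNA entries and 58 hairpins between the first base of Dlk1 and the last base of Dio3. The first set is shown because these microRNAs are read from the strand opposite to Rtl1. Of all mature sequences in the interval, 11 from 6 hairpins had an exact reverse complement in the Rtl1 transcript of 6358 bases, all 11 within its coding part from base 148 to base 5379, and none had one in the other 55 transcripts of the 6 genes. In each line the seed, bases 2 to 8 from the 5′ end, is in capitals.

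miR-431-5p: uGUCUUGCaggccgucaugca
miR-433-3p: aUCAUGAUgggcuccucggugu
miR-127-3p: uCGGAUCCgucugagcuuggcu
miR-434-3p: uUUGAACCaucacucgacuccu
miR-136-5p: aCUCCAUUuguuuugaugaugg

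The site of miR-127-3p in Rtl1 covers bases 2642 to 2663 of the transcript, counted from its 5′ end; the bases that pair with the seed are in capitals.

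Rtl1 site: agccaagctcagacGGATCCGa

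The second set lies on the same strand as its host, inside exons of Meg3 or Mirg, so that spliced host RNA still holds the hairpin. Mir770 is inside the long exon of 1 Meg3 transcript, Meg3-209. Mir134, Mir485, Mir377 and Mir410 are inside exons of Mirg transcripts.

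miR-770-5p: aGCACCACgugucugggccacg
miR-134-5p: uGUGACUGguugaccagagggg
miR-485-3p: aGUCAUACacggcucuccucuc
miR-377-3p: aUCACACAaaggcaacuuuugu
miR-410-3p: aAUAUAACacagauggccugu

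Among the 104 seeds of the interval, 9 were shared by more than 1 mature microRNA. The pairs shown here share a seed although they come from different hairpins: miR-379-5p with miR-1193-5p, miR-379-3p with miR-411-3p, and miR-376c-5p with miR-376b-5p.

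miR-379-5p: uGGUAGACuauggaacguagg
miR-1193-5p: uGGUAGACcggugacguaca
miR-379-3p: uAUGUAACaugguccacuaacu
miR-411-3p: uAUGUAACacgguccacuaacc
miR-376c-5p: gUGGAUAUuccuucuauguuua
miR-376b-5p: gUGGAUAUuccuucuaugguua

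The interval spans 828.27 kb (mm10, chr12:109452823-110281097) and held 118 annotated genes in GENCODE M21, the 6 named genes and 112 others. Most of the others were small: 67 microRNA genes and 23 snoRNA genes. The whole interval took 135353 and 118905 expected counts in replicates 1 and 2, and the 6 named genes held 98.1% of them in both libraries. The stretch of 208.46 kb from the start of Meg3 to the end of Mirg held 99.9% of the counts of the domain on the plus strand, and its 9 genes on the minus strand, Rtl1 among them, had 6 and 3 counts. In the 531.64 kb from the end of Mirg to the end of Dio3, genes on the plus strand had 57 and 55 counts, of which Dio3 had 55 and 55. High counts thus filled the stretch from Meg3 to Mirg, between the coding genes at either end of the interval.

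**Figure D1:**
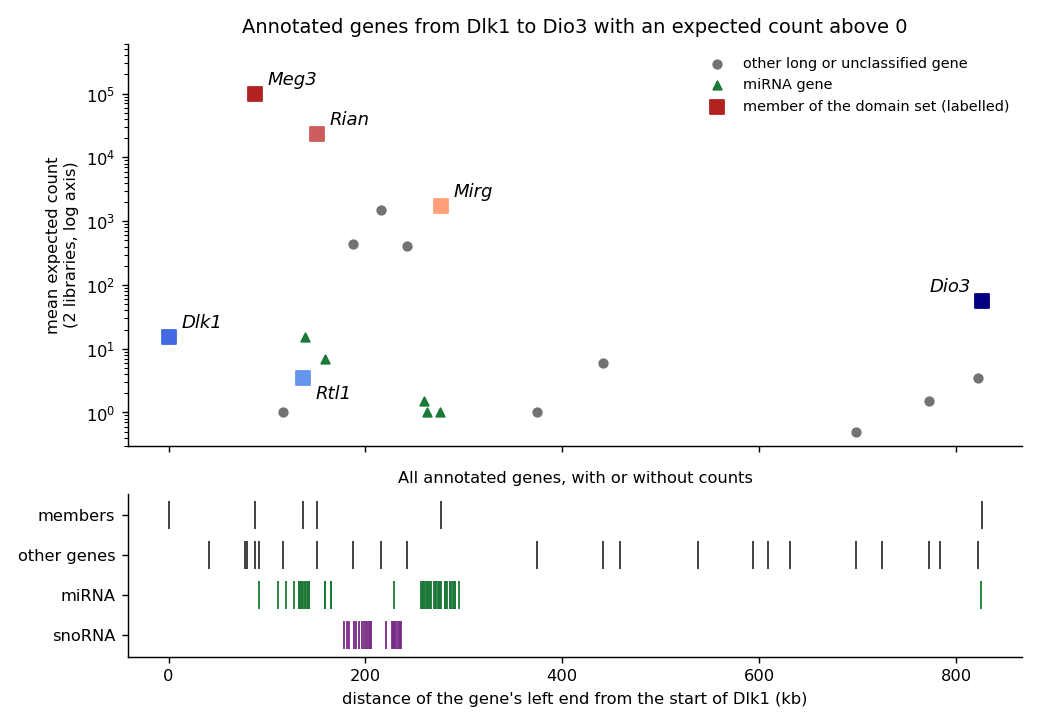
Mean expected counts (log axis) of the genes between Dlk1 and Dio3 that had any, against the distance of each gene from the start of Dlk1 in kb, with the place of every annotated gene below. Meg3, Rian and Mirg stand highest, with 1607 to 105656 counts in the single libraries, while Dlk1, Rtl1 and Dio3 had 2 to 55.

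The non-coding genes were high and the coding genes were at or near the limit of detection. Summed over Meg3, Rian and Mirg, the level was 2166 TPM in replicate 1 and 2072 TPM in replicate 2, against 2.06 and 1.97 TPM summed over Dlk1, Rtl1 and Dio3. The ratio was 1051 in replicate 1 and 1052 in replicate 2, or 10.04 ± 0.00 on the log2 scale (SD, n = 2). The coding sums rest on 77 and 70 counts, and in counts not divided by length the ratio was 1724 and 1666. The SD of 0.00 therefore does not give the precision of the ratio. The groups of genes did not overlap in either library, the lowest non-coding level being 53.6 TPM (Mirg) and the highest coding level 1.50 TPM (Dio3). No test is given for this ratio, since an exact test that flips signs over 2 libraries cannot give a p below 0.5. In bulk tissue, fewer cells that express a gene and less of its RNA per cell cannot be told apart.

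Meg3, a long intergenic non-coding RNA (ENSMUSG00000021268.17, chr12:109541001-109571726, plus strand), had 105656 and 92854 counts. Its level was 1338 TPM in replicate 1 and 1279.6 TPM in replicate 2, a mean of 1309 ± 41.0 TPM (SD, n = 2). It was 32nd of 55536 genes by TPM, 5th of 13374 long non-coding genes, and 12th by count. The genes just above and below it in level were mt-Nd5, a subunit of respiratory complex I encoded in the mitochondrial genome, at 1388 ± 51.0 TPM, and Tubb2a, a beta-tubulin, at 1142 ± 46.1 TPM. Meg3 alone took 0.331% and 0.313% of all counts assigned to named genes.

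Rian (ENSMUSG00000097451.10, chr12:109603940-109661716, plus strand), the snoRNA host, had 25171 and 22148 counts. Its level was 772 TPM in replicate 1 and 738.5 TPM in replicate 2, a mean of 755 ± 23.4 TPM, 63rd of all genes and next after Meg3 among long non-coding genes. Tubb2b at 757 ± 72.2 TPM and Ubb, a ubiquitin gene, at 741 ± 28.9 TPM stood next to it and did not differ from it beyond their spread. Mirg (ENSMUSG00000097391.8, chr12:109729764-109749460, plus strand), the microRNA cluster host, had 1885 and 1607 counts. Its level was 56.5 TPM in replicate 1 and 53.6 TPM in replicate 2, a mean of 55.0 ± 1.99 TPM, 2105th of all genes and 21st among long non-coding genes. Glrb, the beta subunit of the glycine receptor, at 55.1 ± 2.85 TPM and Pcyox1 at 55.0 ± 2.33 TPM had the levels closest to that of Mirg.

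Dio3 (ENSMUSG00000075707.5, chr12:110279068-110281097, plus strand) had 55 counts in each library, 1.50 and 1.44 TPM. It was the one coding gene of the domain at 1 TPM or more in both libraries. Dlk1 (ENSMUSG00000040856.17, chr12:109452823-109463336, plus strand) had 17 and 13 counts, 0.52 and 0.51 TPM. Rtl1 (ENSMUSG00000085925.3, chr12:109589193-109600330, minus strand) had 5 and 2 counts, 0.04 and 0.02 TPM. In rank of TPM Dio3 was 14520th, Dlk1 17852nd and Rtl1 26222nd of 55536. The order of levels was therefore Meg3, Rian, Mirg, Dio3, Dlk1 and Rtl1, and in the alignment-based values no neighbours in it overlapped between libraries. The TPM intervals deposited with these values did overlap between Dio3 and Dlk1 in both libraries.

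In TPM, the ratios among Meg3, Rian, Mirg and Dio3 were close in the 2 libraries. Meg3 stood 1.73-fold above Rian in both libraries and 23.7- and 23.9-fold above Mirg, and Rian stood 13.7- and 13.8-fold above Mirg. Meg3 exceeded Dio3 892-fold in replicate 1 and 889-fold in replicate 2. The ratios to Dio3 rest on 55 counts of Dio3 in each library. The mean effective length of Dio3 was 1688 bases in replicate 1 and 1896 in replicate 2. The ratios of Meg3 to Dio3 are therefore less close in counts than in TPM. The ratio of Dio3 between the libraries has a 95% counting interval of 0.625 to 1.37. Ratios to Rtl1 were not close: Meg3 over Rtl1 was 33442 in replicate 1 and 63982 in replicate 2, and Dlk1 over Rtl1 was 13.0 and 25.5. They rest on 5 and 2 counts of Rtl1, whose own ratio between the libraries has a 95% counting interval of 0.378 to 24.3. Meg3 made up 61.8% of the summed TPM of the non-coding genes in both libraries and 79.6% of their counts. The difference between these shares follows the mean effective length, 3643 and 3603 bases for Meg3 and 1504 and 1489 bases for Rian.

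A second deposited quantification, made from the FASTQ files, kept the gap between the gene types but reversed the order of Meg3 and Rian. Meg3 had 1259.5 and 1188 TPM by this route, and Rian had 1369.8 and 1326 TPM, so that Meg3 over Rian was 0.919 and 0.896. Counts per gene moved little for Meg3 and Rian: on the log2 scale, alignment-based over FASTQ-based counts were -0.08 for Meg3 and -0.08 for Rian, against a median of -0.09 over 12881 genes. Mirg stood lower in this ratio, at -0.22 or the 6.7th percentile, and its FASTQ-based counts were 2233 and 1844, against 1885 and 1607 by alignment. On TPM the same ratio was 0.10 for Meg3 and -0.84 for Rian, against a median of -0.61 with 90% of genes between -1.15 and -0.19. Meg3 thus stood at the 97.4th percentile of this ratio, Rian at the 18.9th and Mirg at the 56.5th. Mirg had 85.9 and 78.1 TPM by FASTQ, Dio3 2.15 and 2.20 TPM, Dlk1 1.54 and 0.897 TPM, and Rtl1 0.0808 and 0.0316 TPM.

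**Figure D2:**
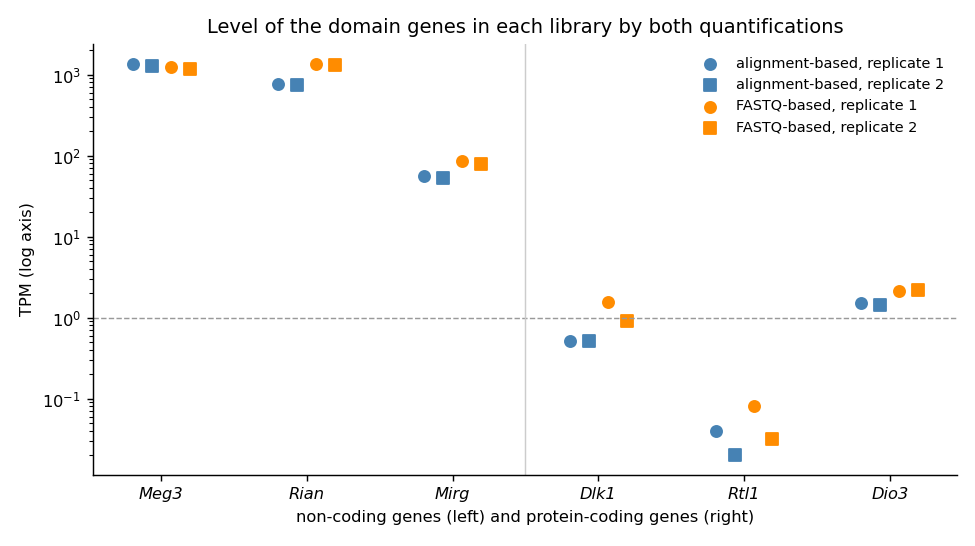
Level of each of the 6 genes in TPM (log axis) in each library by the alignment-based and the FASTQ-based quantification, with a dashed line at 1 TPM. Meg3 (1338 and 1279.6 TPM) is above Rian (772 and 738.5 TPM) in the alignment-based values and below it in the FASTQ-based ones, and the 3 coding genes reach at most 2.20 TPM.

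The libraries were compared gene by gene with a two-sided exact binomial test on counts, scaled for library size and adjusted by the Benjamini-Hochberg method over the 12881 genes whose mean count reached 100. This test compares the reads of these 2 libraries and not conditions. Of the 3 named genes tested, 2 were called at an adjusted p under 0.05, both higher in replicate 1, where 11.8% of all tested genes were called, 5.49% as higher and 6.28% as lower in replicate 1. Meg3 was 1.05-fold higher in replicate 1 than in the library labelled male, replicate 2 (95% counting interval 1.04 to 1.06, log2 ratio 0.07, exact binomial adjusted p = 1.83e-27). Rian was also 1.05-fold higher (1.03 to 1.07, log2 ratio 0.07, exact binomial adjusted p = 2.62e-06). Mirg had a ratio of 1.08 (1.01 to 1.16, log2 ratio 0.12) and did not pass at an exact binomial adjusted p of 0.106.

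Among genes whose mean count reached 10000, to which Meg3 and Rian belong, 49.0% were called, and the median absolute log2 ratio was 0.0402 with a 90th percentile of 0.122, so that both ratios of 0.07 lie above the middle of these genes and within that percentile. None of the 3 tested genes was called with a ratio of at least 2-fold, as 0.303% of all tested genes were. In absolute log2 ratio Meg3 stood at the 51.6th percentile of all tested genes, Rian at the 50.7th and Mirg at the 69.7th, the median of all being 0.0702. The coding genes had too few counts for the test. Dlk1 had a ratio of 1.21 (0.553 to 2.71), Rtl1 of 2.31 (0.378 to 24.3) and Dio3 of 0.925 (0.625 to 1.37), so that differences of these sizes were not detectable at this depth. The neuron markers given above had a median log2 ratio of -0.07, opposite in sign to Meg3 and Rian. The choroid plexus and myelin markers differed far more between the libraries. The part of any of these tissue differences in the ratios of Meg3 and Rian was not tested.

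**Figure D3:**
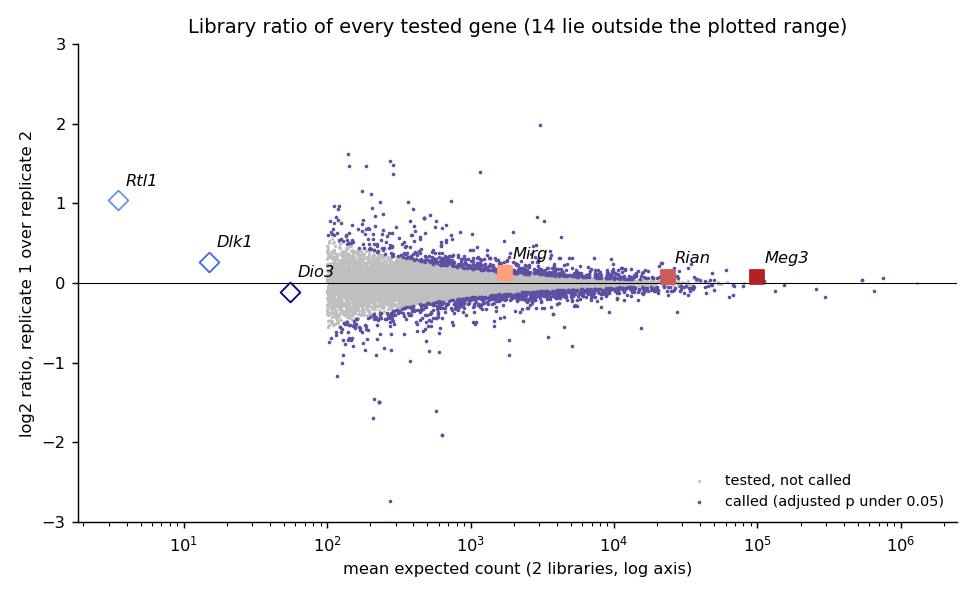
Log2 ratio of replicate 1 over replicate 2 against the mean expected count (log axis) for the 12881 tested genes, called ones in purple, with the 6 domain genes marked (filled squares tested, open diamonds under the count limit); 14 genes lie outside the plotted range. Meg3 and Rian lie at 0.07 and Mirg at 0.12, close to 0 on the plotted scale.

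Meg3 is annotated with 11 transcripts that use several starts, and RefSeq gives a window around each of 2 starts. Both windows are shown because the transcripts that leave them held very different parts of the gene's reads. Each runs from 250 bases before to 50 bases after the start on the plus strand (GRCm38.p6). Capitals mark 3 motifs, each searched on both strands: CG, TGACGTCA (which contains a CG), and TATAAA. The upstream window, chr12:109540746-109541045, belongs to the start at base 109540996.

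Meg3 upstream start: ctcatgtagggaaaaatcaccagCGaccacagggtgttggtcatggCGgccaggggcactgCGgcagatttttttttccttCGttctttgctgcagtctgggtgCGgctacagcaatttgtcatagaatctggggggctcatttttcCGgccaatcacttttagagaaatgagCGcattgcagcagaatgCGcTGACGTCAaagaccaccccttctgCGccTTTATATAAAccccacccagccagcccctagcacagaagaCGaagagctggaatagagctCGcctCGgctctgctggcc

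The downstream window, chr12:109545148-109545447, belongs to the start at base 109545398, which is the first base of Meg3-209.

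Meg3 downstream start: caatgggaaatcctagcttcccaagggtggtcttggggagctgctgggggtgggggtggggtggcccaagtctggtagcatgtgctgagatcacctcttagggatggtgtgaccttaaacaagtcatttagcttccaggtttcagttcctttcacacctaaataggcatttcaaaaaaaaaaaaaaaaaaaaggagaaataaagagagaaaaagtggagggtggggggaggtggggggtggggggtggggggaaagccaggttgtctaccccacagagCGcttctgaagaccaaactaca

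The upstream window held 13 CG, 1 TGACGTCA whose first base lies 57 bases before the start, and 2 overlapping TATAAA matches, 1 on each strand. The downstream window held 1 CG and neither of the other motifs. Over 32817 promoter windows of the same length, the median was 7 CG, 1.79% held TGACGTCA and 13.62% held TATAAA. The windows of Dio3, Mirg and Dlk1 held 25, 10 and 9 CG, and that of Rian held 0. The Mirg window belongs to a RefSeq start at base 109734981, inside the gene, whose first annotated base is 109729764. No window was given for Rtl1.

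Transcripts that start within 50 bases of the upstream RefSeq start, Meg3-205, Meg3-207 and Meg3-201, held 29.8% and 29.1% of the TPM of Meg3 in replicates 1 and 2, and 12.1% of its counts in both. The transcript of the downstream start, Meg3-209, held 19.8% and 19.4% of the TPM but 78.4% and 77.8% of the counts. The other 7 transcripts, with no RefSeq start within 50 bases, held 50.4% and 51.5% of the TPM and 9.46% and 10.1% of the counts. In the FASTQ-based table the TPM shares were 36.9% and 37.3% for the upstream start, 26.5% and 26.3% for the downstream start, and 36.5% and 36.4% for the others. Meg3-209, the transcript of the downstream start, thus led in reads in both tables. Its TPM share was the lowest of these groups in both, but it is 1 transcript set against groups of 3 and 7. No other annotated transcript covers most of its last exon, so reads there do not show which start was used.

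Meg3-209 is 14548 bases long in 5 exons, of which the last measures 13087 bases and contains Mir770. Its level was 264 and 248 TPM by alignment, 19.6% ± 0.262 of the gene (SD, n = 2), and 334 and 312 TPM by FASTQ. With 82860 and 72247 of the gene's counts, it was the transcript model to which most Meg3 reads were assigned in both libraries.

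By mean TPM the leading transcript was Meg3-205, 1498 bases in 3 exons over the first 4.318 kb of the gene. It had 323 and 284 TPM, 23.2% ± 1.35 of the gene (SD, n = 2), and led in replicate 1 of the alignment-based table and in both libraries of the FASTQ-based one. Meg3-203, 457 bases in 3 exons, followed at 287 and 290.2 TPM or 22.1% ± 0.850 and was ahead of Meg3-205 in replicate 2. The FASTQ-based table listed Meg3-203 at 0 in both libraries. Only its first exon, of 70 bases, lies outside the exons of Meg3-205. Meg3-202 had 150.02 and 145 TPM, 11.3% ± 0.103, and 131 and 127 TPM by FASTQ. Meg3-211 had 81.6 and 68.4 TPM by alignment, and 24.3 and 0.0369 TPM by FASTQ. Meg3-206, 5971 bases long, moved the other way, with 23.4 and 26.3 TPM by alignment, and 204 and 212 TPM by FASTQ. Meg3-204 had 72.2 and 66.4 TPM by alignment, and 100.01 and 94.0 TPM by FASTQ.

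**Figure D4:**
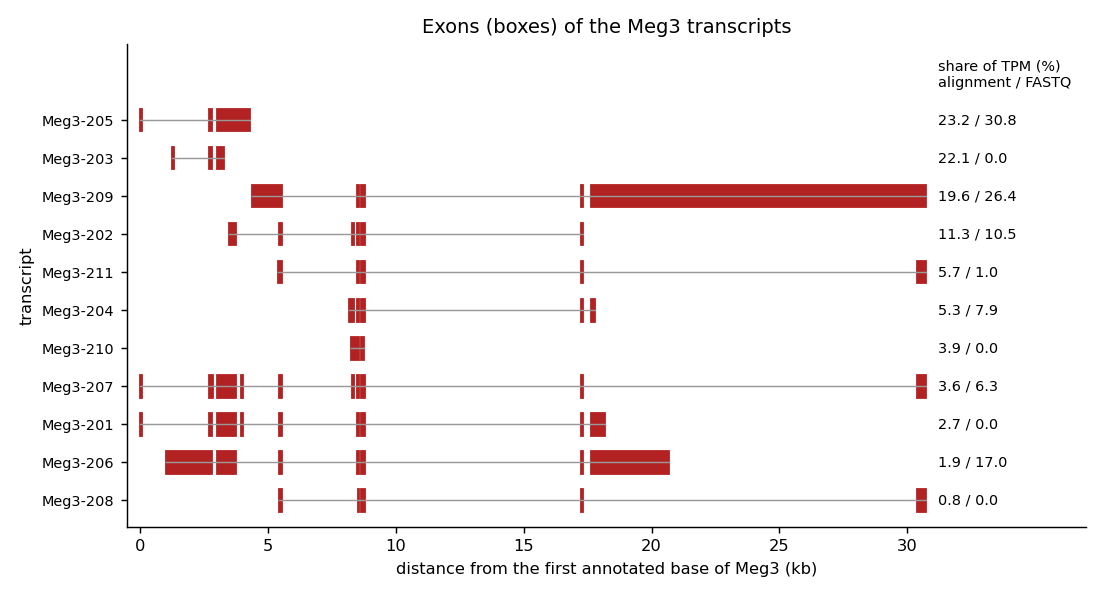
Exons (boxes) of the 11 Meg3 transcripts against the distance in kb from the first annotated base of the gene, ordered by their mean share of Meg3 TPM, with the alignment-based and FASTQ-based shares at the right. Meg3-205 ends within the first 5 kb, and Meg3-209 alone covers most of the last 13 kb.

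The make-up of Meg3 was close in the 2 libraries and differed more between the tables. The summed share that would have to pass from some transcripts to others to turn 1 make-up into the other was 3.29 percentage points between replicate 1 and replicate 2 in the alignment-based table and 3.73 points in the FASTQ-based table. Between the alignment-based and the FASTQ-based table it was 33.1 points in replicate 1 and 36.8 points in replicate 2. The SD of a share over the libraries thus leaves out most of the difference that the choice of table made. The 2 transcripts under 500 bases held 25.2% and 26.8% of the TPM by alignment and 0% by FASTQ. The 2 transcripts over 2000 bases held 21.5% of the TPM and 81.2% of the counts in both libraries by alignment, and 42.7% and 44.1% of the TPM by FASTQ.

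**Figure D5:**
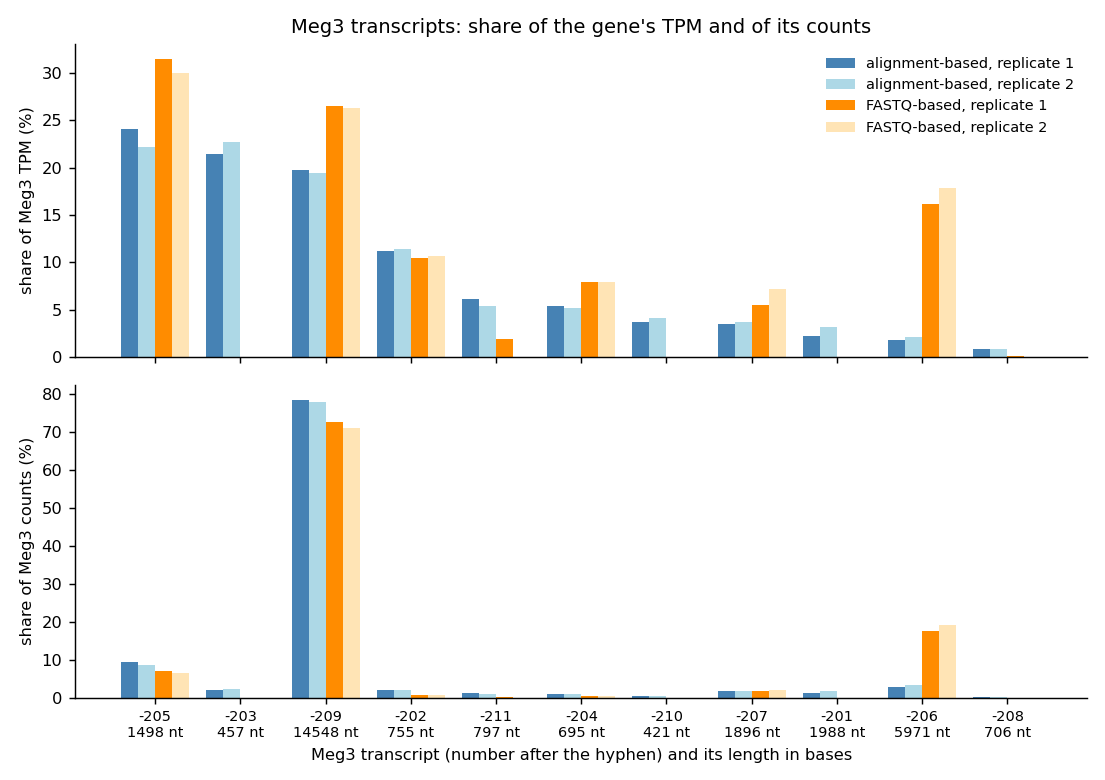
Share of the TPM (top) and of the counts (bottom) of Meg3 held by each transcript, in each library and table, with transcript lengths under the axis. Bars of the 2 libraries stand close together, Meg3-203 and Meg3-210 have no FASTQ-based bar, and Meg3-209 holds 71.0% to 78.4% of the counts in every library and table.

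Rian has 20 annotated transcripts, 17 of them at 1 TPM or more in both libraries by alignment. Rian-202, 2355 bases in 11 exons, led with 259 and 246 TPM, 33.4% ± 0.184 of the gene (SD, n = 2), and with 344 and 329 TPM or 25.0% by FASTQ. Rian-213 followed with 179 and 161 TPM, 22.5% ± 0.977, and with 293 and 259 TPM by FASTQ. Rian-211 had 56.3 and 62.6 TPM, Rian-205 47.2 and 40.5 TPM, and Rian-203 34.1 and 36.2 TPM. The tables disagreed on Rian-207, a transcript of 553 bases, which was listed at 0 by alignment in both libraries and had 117 and 113 TPM by FASTQ. Rian-205 differed by more in TPM, with 178 and 165 TPM by FASTQ.

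Mirg has 12 annotated transcripts, 8 of them at 1 TPM or more in both libraries. Mirg-201, whose exon holds Mir377, and Mirg-203 were close, with 14.1 and 14.7 TPM and 14.7 and 12.7 TPM in replicates 1 and 2, so that their order differed between the libraries. Mirg-207 had 10.2 and 11.0 TPM by alignment, and 0 and 3.18 TPM by FASTQ. Mirg-208 and Mirg-204, whose exons hold Mir134, Mir485 and Mir410, had 4.85 and 4.55 TPM and 3.95 and 3.36 TPM, and together with Mirg-212 they held 44.7% and 40.1% of the gene's counts. Mirg-206 had 2.91 and 2.62 TPM by alignment, and 15.4 and 10.6 TPM by FASTQ.

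The coding genes have too few counts for transcript shares. Dlk1 has 10 annotated transcripts, of which none reached 1 TPM in both libraries and 6 had no count in either. By counts its leading transcript was Dlk1-205 with 13.02 counts in replicate 1 and Dlk1-201 with 7.90 counts in replicate 2. These had 2.35 and 0 counts in the other library. By mean TPM Dlk1-209 led, with 0.11 and 0.36 TPM. Dio3 has 2 annotated transcripts, and Dio3-202 held 36.6 and 52.7 of its 55 counts. Rtl1 has 1.

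Small RNA genes of the domain could hardly be measured in these tables. All 23 snoRNA genes and 59 of 67 microRNA genes had an effective length of 0, since the alignment-based quantification takes 99 bases off each length, so their 0 counts carry no information on their level. Of the 8 microRNA genes with an effective length above 0, 5 had counts: Mir433 had 18 and 13, Mir1188 had 11 and 3, Mir1197 had 2 and 1, Mir1193 had 2 and 0, and Gm27379 had 1 and 1. The FASTQ-based table listed every microRNA and snoRNA gene of the domain at 0. For transcripts over 1000 bases it takes a median of 352 and 356 bases off the length, more than the length of any of these genes. These 0 values are therefore no evidence of absence either. By alignment, reads at Mir433, which lies inside an exon of Rtl1 on the opposite strand, outnumbered the 5 and 2 counts of Rtl1 itself. By FASTQ the order was reversed, with 0 counts of Mir433 and 8.24 and 3.00 of Rtl1. Which of the 2 genes gave the reads at Mir433 was not tested. The counts of microRNA genes are those of the annotated hairpin genes and not of the mature forms printed above.

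By position, the small RNA genes followed the non-coding genes. Of the 67 microRNA genes, 30 lie in the 68.05 kb between Rian and Mirg, 15 within Mirg, 8 between Meg3 and Rtl1, 7 within Rtl1, 4 in introns of Rian, 2 (Mir770 and Mir1906-1) in exons of Meg3, and 1 between Mirg and Dio3. Of the 23 snoRNA genes, 13 lie within Rian, 8 of them inside an exon, and the other 10 between Rian and Mirg. Long transcripts cover parts of that stretch. Gm37899 had 1594 and 1416 counts and 8.53 and 8.16 TPM, and B830012L14Rik had 433 and 382 counts and 4.53 and 4.30 TPM. Gm26945, inside the span of Rian, had 490 and 396 counts and 11.8 and 10.3 TPM. None of these 3 passed the test between libraries, with exact binomial adjusted p of 0.582, 0.779 and 0.21.

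Genes on the strand opposite to Meg3 and Dio3 were near 0. Gm26906, which lies on the minus strand within the last exon of Meg3-209, had 1 count in each library. Dio3os, on the minus strand beside Dio3 and not overlapping it, had 4 and 3 counts. The sources do not say whether counting used strand. Few reads were thus assigned to the gene opposite the abundant Meg3 exon. Whether this came from strand or from how reads were shared between overlapping transcripts was not tested.

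Genes on either side of the domain were mostly expressed, with a median level of 24.0 TPM in replicate 1 and 22.1 TPM in replicate 2. Of 13 flanking genes, 12 were at 1 TPM or more in both libraries and 11 were tested, of which 0 were called, at an exact binomial adjusted p of 0.119 or more, beside the 11.8% of all genes; their median log2 ratio was 0.01 and that of all tested genes 0.00. The chaperone gene Hsp90aa1 had 460.02 ± 1.37 TPM, the actin regulator Evl 143 ± 4.83 TPM, the dynein heavy chain gene Dync1h1 136 ± 3.74 TPM, and Wdr25, the lowest detected, 3.21 ± 0.0566 TPM.

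Genes that maintain or silence imprinted regions were present for the most part, 19 of 20 at 1 TPM or more. The DNA methyltransferase Dnmt3a had 135 ± 7.54 TPM, Trim28, the corepressor recruited by imprint-binding zinc finger proteins, 122 ± 4.64 TPM, Zfp445, such a zinc finger protein, 73.6 ± 1.34 TPM, and Dnmt3b, the lowest detected, 1.02 ± 0.0141 TPM. Of 18 tested, 2 were called as higher in replicate 1 and 0 as lower, a share near the 11.8% of all tested genes, and their median log2 ratio was 0.00. These were Zfp57, which binds methylated imprint control regions (32.9 and 27.2 TPM, log2 ratio 0.28, exact binomial adjusted p = 0.000474), and Tet2, a methylcytosine oxidase (25.4 and 22.3 TPM, log2 ratio 0.12, exact binomial adjusted p = 0.0409). Both were named after their values were seen.

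Partners of Dlk1 in the Notch pathway were all detected, 17 of 17, and 0 of 17 tested were called, beside 11.8% of all tested genes, at an exact binomial adjusted p of 0.0868 or more; their median log2 ratio was -0.02. The sheddase gene Adam10 had 36.0 ± 1.97 TPM, the Notch target Hes5 33.0 ± 1.29 TPM, the ligand Jag2 24.6 ± 2.09 TPM and Hey2, the lowest, 2.04 ± 0.226 TPM. Dlk1 had 0.52 and 0.51 TPM, against 19.9 and 20.6 TPM for its paralogue Dlk2, which was named after its values were seen.

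Thyroid hormone genes around Dio3 were detected in 10 of 12 cases. Thra, a thyroid hormone receptor, had 624 ± 12.8 TPM, and Crym, a thyroid hormone-binding protein, 311 ± 4.67 TPM. Ttr, a carrier of thyroid hormone made by the choroid plexus, had 8.02 TPM in replicate 1 and 340.07 TPM in replicate 2, alongside the choroid plexus markers given above. Thrsp was the lowest detected at 7.32 ± 2.17 TPM. Of 10 tested, 3 were called as higher in replicate 1, namely Klf9, Dio2 and Thrsp, and 2 as lower, Ttr and Hr, with a median log2 ratio of 0.02; of all tested genes 5.49% were called as higher and 6.28% as lower. Klf9, Thrsp and Hr, which are known to respond to the hormone, had log2 ratios of 0.12, 0.61 and -0.27, and Ttr had -5.41, the one ratio of the list beyond 2-fold. Dio3, which inactivates the hormone, had 1.50 TPM in replicate 1 and 1.44 TPM in replicate 2, against 26.6 and 19.1 TPM for Dio2, the deiodinase that activates it. Dio2 differed between the libraries by a log2 ratio of 0.47 (exact binomial adjusted p = 3.38e-30). Dio1 was listed at 0. Klf9, Hr, Dio2 and Dio1 were named after their values were seen.

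Other genes derived from retrotransposons were higher than Rtl1. Of 11, 10 were at 1 TPM or more in both libraries, led by Rtl8a at 96.6 ± 17.0 TPM, Rtl8b at 79.9 ± 6.07 TPM and Rtl8c at 57.9 ± 8.06 TPM, with Rtl9 the lowest detected at 1.20 ± 0.177 TPM. Of 8 tested, Rtl8b was called as higher (log2 ratio 0.15) and Rtl8a as lower (-0.37) in replicate 1, beside 11.8% of all tested genes called, and the median log2 ratio of the list was -0.11. Rtl8a and Rtl8b are near-identical copies with non-whole expected counts, so the split of reads between them is uncertain.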

How the data were processed

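The alignment-based gene and transcript tables hold expected counts, deposited without normalization, and TPM scaled to a fixed total over all entries, with the mm10 build and GENCODE M21 annotation per the labels and the submitters' descriptions. The FASTQ-based transcript table deposited by the authors holds estimated counts and TPM. No tool is named in the sources, but the headers match the output of RSEM and of kallisto. Of other deposited columns, per the file headers the posterior standard deviation and interval bounds, none is printed.

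FASTQ-based values were summed per gene. The 97 spike-in entries (0.358% and 0.359% of counts) and 26248 entries named by a number (2.81e-05% and 2.00e-05%) were left out. Expected counts were rounded, scaled with TMM (edgeR 4.0.16, R 4.3.3) and tested with scipy 1.17.1 under Python 3.11.15; the test was tried on simulated data. Intervals are exact Clopper-Pearson at 95% and, reads having no molecular identifiers here, cover counting error only. Log2 ratios use a prior count of 0.5. No edgeR or DESeq2 contrast can be fitted to 1 group. The named genes were all 6 members, the 5 highest transcripts by each table for Meg3, Rian and Mirg, the genes next in level, and the 3 highest and the lowest detected gene of each list. The members and lists were chosen with earlier results of these data known. Alternatives were DESeq2 1.42.0 size factors, total counts, other filters and units, and leaving out a library.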

Additional observations from a re-analysis of the deposited data

How the results depend on the processing

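The log2 ratio of non-coding over coding genes was 10.04 in TPM, 10.73 in counts not divided by length, 9.59 in FASTQ-based TPM, and 10.26 as a difference of median log2(TPM + 0.1). Leaving out each replicate gave 10.04 to 10.04. The share of Meg3-205 in Meg3 TPM was 23.15%, 30.78% in the FASTQ-based table and 8.939% of counts, and 22.20% to 24.11% with each replicate left out. The causes of these shifts were not tested, beyond the division by length that the units differ in. Of the named genes, 2 were called between the libraries with DESeq2 size factors, total counts or other count filters, and 3 with FASTQ-based counts, where Mirg had a log2 ratio of 0.16 and an exact binomial adjusted p of 0.00618 (0.00618 to 0.106 over the alternatives). Rescaling TPM over protein-coding and long non-coding genes gave 2485 TPM for Meg3, 1434 for Rian, 104.5 for Mirg, 0.978 for Dlk1, 0.0570 for Rtl1 and 2.79 for Dio3. The order of Meg3 and Rian, stated in the results, was the order that reversed between tables. No log2 ratio changed sign. No paired analysis was possible because there is only 1 group.

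With 55 or fewer counts a library, Dlk1, Rtl1 and Dio3 have levels fixed by few reads, and Rtl1 counts of 5 and 2 allow ratios between 0.378 and 24.3. The spread between the replicates rests on 1 difference between 2 libraries, of which 1 goes against its label. Since pooling is not spelled out, it cannot be read as a spread between animals.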
